A study of Mus musculus with 3 samples.

Results

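The isthmic organizer, the signaling center at the midbrain-hindbrain boundary, was followed through 8 of its genes in 3 mouse rhabdoid tumors by single-cell RNA sequencing. The genes were En1, En2, Pax2, Pax5, Fgf8, Otx2, Irx3 and Lmx1b, chosen as a list of symbols of boundary regulators and not by their level. All 8 were present among the 31053 genes of the table of each tumor. The tumors were called R26-SHH, each came from a different mouse of the genotype Rosa26-CreERT2::Smarcb1flox/flox on a mixed 129/SV and C57BL/6 background, and all 3 formed 1 group. In this model a tamoxifen-activated Cre recombinase expressed from the Rosa26 locus deletes Smarcb1, a subunit of the SWI/SNF chromatin remodeling complex, so that the deletion is not restricted to 1 cell type and unrecombined host cells remain in the tissue. The study obtained tumors of this kind after the earliest inactivation of Smarcb1 it used, in early gestation, and the age of each mouse and the exact day of tamoxifen for each of the 3 tumors were not given in the sources used here. The study described the 3 tumors profiled here as Shh tumors of the basal ganglia. Smarcb1-deficient areas where midbrain meets posterior fossa were seen by the study only occasionally in this model, and did not become bulky. No control tissue was measured, so every comparison below was made between groups of cells within the tumors, with the mouse as the replicate (n = 3). The numbers 1 to 3 only name the tumors, and with 1 tumor a mouse no test between tumors was possible.

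In the embryo the boundary forms where Otx2, the homeobox gene of the forebrain and midbrain, meets the anterior hindbrain. Pax2 and Lmx1b act early in setting up the organizer, Fgf8 is its secreted signal, and En1, En2 and Pax5 encode transcription factors expressed on both sides of the boundary that maintain Fgf8 and pattern the tectum and cerebellum. Irx3, a homeobox gene of the Iroquois family, is expressed more broadly in the neural tube and takes part in its regional subdivision. In the normal neural tube, the posterior limit of Otx2 lies at the boundary itself, so that En1 or En2 together with Otx2 is a feature of the midbrain side.

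The tables held 12467, 9485 and 6428 barcodes with 79529921, 40151353 and 67645602 UMIs (unique molecular identifiers, each counting 1 captured RNA molecule) in tumors 1, 2 and 3. After doublet removal and at 2000 or more UMIs a cell, 4755, 2361 and 2266 cells fell into 5 tumor states defined by markers, which were progenitor-like (2312, 1121 and 1193 cells), stem-like (1199, 524 and 503), cycling (469, 187 and 383), neuronal-like (435, 335 and 92) and mesenchymal-like (340, 194 and 95). The states are gates on a marker minimum, and cells of 1 state also held markers of others. Neuronal-like cells held a mean of 18.2, 12.7 and 16.3 UMIs of the progenitor list beside 8.66, 9.21 and 10.02 of their own, and mesenchymal-like cells of tumors 1 and 2 held 12.7 and 13.04 UMIs of the stem list beside 9.78 and 10.5 of their own. The median depth of the tumor-state cells was 9504, 7392 and 19360.5 UMIs. Immune-like cells (567, 519 and 151 cells), which should lack the boundary genes, gave 1 measure of free RNA taken up by droplets, and it may understate that level for other cells. En1, for example, was at 358 CPM in the 23 erythroid-like cells of tumor 2, close to the tumor states, and at 111, 164 and 5.71 CPM in endothelial-like cells. Smarcb1 checked the genotype, with 0.401, 0.936 and 0.559 CPM (counts per 1000000 UMIs) in the tumor states against 30.3, 20.5 and 20.4 CPM in the immune-like cells. The gated tumor states thus lacked nearly all Smarcb1 message relative to the immune-like cells, by -5.68 on the log2 scale (SE 0.33; edgeR's quasi-likelihood test gave an adjusted p = 3.09e-13). Between 22 and 42 barcodes were shared by each pair of tumors.

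The deposited counts came from an assay of the 3′ ends of transcripts, so a difference in level between genes also holds how well each 3′ end is captured and was not tested; genes called scarce or widespread are so by their counts in these libraries. Annotation was that of GENCODE M21 on build GRCm38. En1 lies at chr1:120602418-120607992 (plus strand), En2 at chr5:28165694-28172166 (plus), Pax5 at chr4:44524757-44710487 (minus) and Otx2 at chr14:48657677-48673819 (minus). Fgf8 (chr19:45736798-45742915, minus) and Pax2 (chr19:44756045-44837871, plus) are on the same chromosome, Irx3 lies at chr8:91798525-91802067 (minus) and Lmx1b at chr2:33560965-33640511 (minus). Antisense genes overlap 4 of the members in exons, Irx3os over 1487 bases of Irx3, Gm12462 over 319 bases of Pax5, 1700039E22Rik over 189 bases of Pax2 and Otx2os1 over 168 bases of Otx2, and the sources used here did not state whether counting used strand.

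The promoters of En1, Pax5 and Otx2 are shown because these 3 genes differed in how they were distributed over the states and tumors, and the RefSeq table on GRCm38.p6 holds an entry for each. They are the bases, 5′ to 3′ on the strand of the gene, of the 250 before a start site that lie outside annotated exons. The full 250 bases were searched on both strands for the homeodomain core TAATTA, the Otx-type TAATCC and the Ets-type CCGGAA. Matches were allowed to overlap, and capitals mark a match. The En1 window is chr1:120602237-120602417 (plus strand), the Pax5 window chr4:44710695-44710944 (minus) and the Otx2 window chr14:48667645-48667894 (minus).
En1: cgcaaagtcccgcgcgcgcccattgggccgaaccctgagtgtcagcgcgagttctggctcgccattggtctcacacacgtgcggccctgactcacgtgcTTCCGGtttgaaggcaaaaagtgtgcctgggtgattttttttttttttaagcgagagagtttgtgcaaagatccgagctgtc
Pax5: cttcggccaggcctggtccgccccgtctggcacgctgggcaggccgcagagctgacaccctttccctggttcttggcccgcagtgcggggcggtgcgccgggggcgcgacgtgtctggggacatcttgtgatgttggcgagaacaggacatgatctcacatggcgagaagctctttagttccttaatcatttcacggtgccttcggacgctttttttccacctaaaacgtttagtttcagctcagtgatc
Otx2: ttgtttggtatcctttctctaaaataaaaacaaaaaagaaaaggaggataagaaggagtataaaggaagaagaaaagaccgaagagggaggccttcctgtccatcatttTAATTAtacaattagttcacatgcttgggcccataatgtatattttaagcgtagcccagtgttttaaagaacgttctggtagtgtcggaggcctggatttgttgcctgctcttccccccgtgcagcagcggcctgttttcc

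En1 held 1 Ets-type sequence, written TTCCGG because it lies on the other strand, 151 bases before its start, Otx2 held 1 homeodomain core 141 bases before the start shown, and Pax5 held none of the 3. Of 32851 promoters of this length, 12.0% held the Ets-type sequence, 4.84% the homeodomain core and 6.25% the Otx-type sequence. The GC content of the full 250 bases was 56% for En1, 58.8% for Pax5 and 42% for Otx2, against a median of 52.4% over all promoters. For En1 these include 69 exonic bases that are not printed. Another annotated Otx2 start was preceded by 3 homeodomain cores and 1 Otx-type sequence within exon sequence, and 0.0487% of promoters held 3 or more such cores. Counts of 3′ ends do not tell which start was used. En2 and Fgf8 had no entry in the promoter table used here, which does not show that RefSeq lacks them.

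Among the 8 genes, 6 were above the level of the immune-like cells in the tumor states of every tumor, and Pax2 and Lmx1b were scarce. En1, the engrailed gene expressed first in the boundary region, was at 337 CPM (95% exact Poisson interval 332 to 342) in tumor 1, 361 CPM (353 to 370) in tumor 2 and 106 CPM (103 to 109) in tumor 3. In the immune-like cells it was at 11.1, 21.6 and 8.07 CPM. En1 was thus high in tumors 1 and 2 and lower in tumor 3, beyond counting error, and every tumor lay above its own immune-like cells.

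En2, the second engrailed gene, was likewise lowest in tumor 3, at 177, 175 and 46.5 CPM in the tumor states and 8.79, 13.9 and 14.2 CPM in the immune-like cells. Otx2 was highest in tumor 3, with 215 CPM (211 to 219), 232 CPM (225 to 238) and 329 CPM (324 to 334). Its immune-like level was 10.3, 16.8 and 38.4 CPM, the last of these also being the highest of the 3 tumors. The tumor with the least En1 and En2 was therefore the one with the most Otx2.

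Fgf8, the organizer signal, was at 17.9 and 14.98 CPM in tumors 1 and 2 and 47.5 CPM in tumor 3, so that the tumor low in both engrailed genes was high in Fgf8. Its immune-like level was 1.37, 0.533 and 3.80 CPM. Pax5 was at 22.7, 13.9 and 16.0 CPM, against 3.51, 2.13 and 0.949 CPM in the immune-like cells. Irx3 varied least between tumors relative to its mean among these 6 members, with 38.0, 35.3 and 33.6 CPM (mean 35.6 ± 2.23, SD, n = 3), and its immune-like level was 2.73, 3.20 and 1.90 CPM. For comparison, the SD over tumors was 141 around a mean of 268 CPM for En1, 74.7 around 133 for En2, 61.3 around 258 for Otx2, 17.98 around 26.8 for Fgf8 and 4.57 around 17.5 for Pax5.

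Pax2, a paired-box gene needed to induce the organizer, was nearly undetected in tumors 1 and 2, with 3 and 6 UMIs in all tumor-state cells. In tumor 3 it reached 249 UMIs or 5.16 CPM (4.54 to 5.84). Lmx1b, the LIM homeobox gene that acts upstream of Fgf8 in the chick and mouse isthmus, had 3, 1 and 6 UMIs, or 0.060, 0.049 and 0.124 CPM, in the 3 tumors and was at or under the limit of 3 counts in tumors 1 and 2.

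The share of cells with a UMI was counted after thinning each cell to 2000 UMIs, so that tumors and states of unequal depth could be set side by side. En1 was detected in 41.1%, 40.4% and 16.7% of tumor-state cells, and in 2.65%, 3.85% and 1.32% of immune-like cells. En2 was detected in 24.9%, 24.0% and 6.84%, and in 2.29%, 1.54% and 1.32% of immune-like cells. Otx2 was detected in 29.7%, 31.9% and 42.8%, and in 3.00%, 3.85% and 3.31% of immune-like cells. These 3 members were the widespread ones, in each tumor above the share of immune-like cells. Irx3 was detected in 6.04%, 5.51% and 6.05% of tumor-state cells, Fgf8 in 2.84%, 1.99% and 7.33% and Pax5 in 2.99%, 2.67% and 2.82%. Pax2 was found after thinning in 0 cells of tumors 1 and 2, which allows shares of up to 0.0631% and 0.127% by the limit of 3 counts (0.0775% and 0.156% by the exact interval), and in 1.15% of the cells of tumor 3. At this depth a cell without a UMI is not shown to lack the transcript. The intervals and limits given here and elsewhere cover counting error only, and in summed counts fewer expressing cells and less RNA per cell cannot be told apart.

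The summed counts of tumor states and immune-like cells were compared in edgeR with the mouse as a block over 15701 genes, of which 61.8% were called, with 32.4% higher and 29.5% lower in the tumor states. Of the 7 members tested, 6 were higher and 0 lower, in each of the 3 tumors. The log2 difference was 3.63 for En1 (SE 0.35, adjusted p = 2.62e-09), 3.06 for Otx2 (SE 0.29, 1.74e-09), 2.90 for Irx3 (SE 0.26, 7.93e-10) and 2.84 for En2 (SE 0.41, 1.91e-06). Fgf8 was higher by 2.85 (SE 0.46, adjusted p = 9.44e-06) and Pax5 by 2.26 (SE 0.43, 6.84e-05). Pax2 differed by 1.49 (SE 1.16) and was not called (adjusted p = 0.278), except with doublets kept (1.82, adjusted p = 0.0333), and Lmx1b was too low to be tested. These 6 calls were kept under every alternative run. Among the listed boundary signaling genes (FGF and Wnt ligands, receptors, feedback inhibitors and targets), 13 of the 18 tested were higher in the tumor states and 1 lower, with a median log2 difference of 2.56 against 0.18 over all genes. Of 25 midbrain and hindbrain genes 12 were higher and 3 lower (median 2.18), and of 17 forebrain genes 15 were higher and 0 lower (median 3.00). Forebrain genes were thus among those higher in the tumor states, beside midbrain and hindbrain genes. A further pair of boundary genes, named after their values were seen, was scarce: Wnt1, the signal of the midbrain side, was at 0.180, 0 and 0.207 CPM in the tumor states and was too low to test, and Gbx2, the hindbrain counterpart of Otx2, was at 1.72, 2.86 and 0.145 CPM and was not called (log2 difference 0.63, SE 0.68, adjusted p = 0.441).

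**Figure D1:**
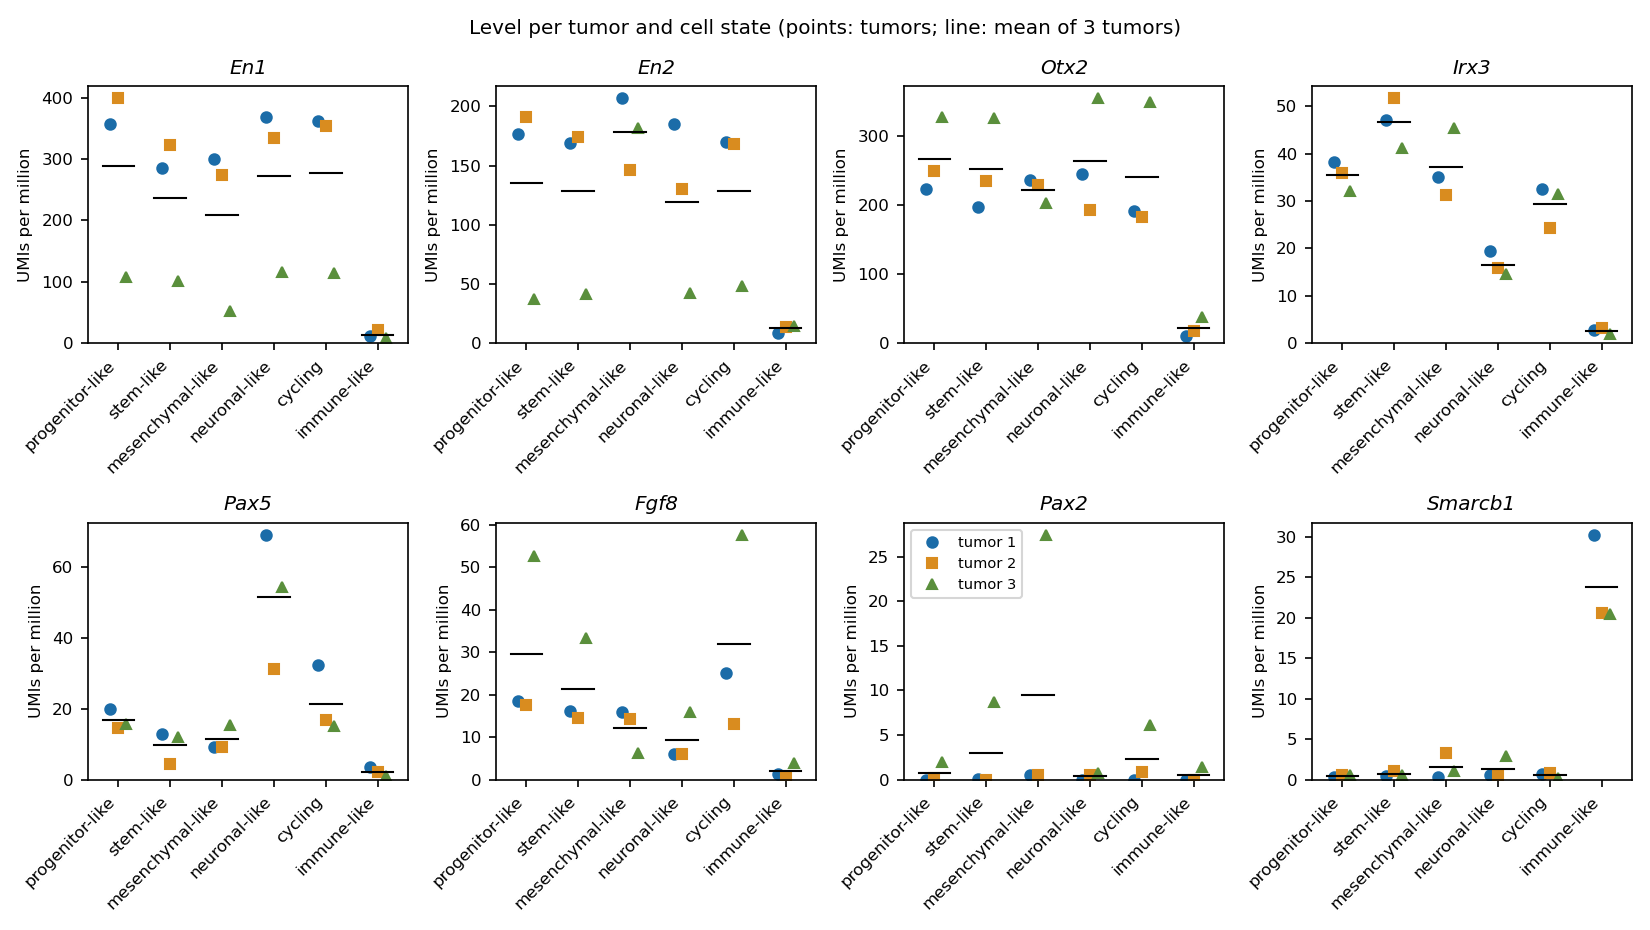
Levels of 7 members and Smarcb1 (CPM, linear axes that start at 0 and differ between panels) in the 5 tumor states and the immune-like cells, with a point for the summed count of each tumor and a line at the mean of the 3 tumors. Pax5 is highest in the neuronal-like cells of all 3 tumors (69.2, 31.1 and 54.4), where Irx3 and Fgf8 are low, and En1 and En2 in tumor 3 lie below the other tumors in most states.

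Within the tumors, the first question was whether the boundary genes belonged to 1 state or ran through all of them. En1 was at 357, 399 and 108 CPM in progenitor-like cells, 285, 323 and 101 in stem-like cells, 362, 354 and 115 in cycling cells and 368, 335 and 115 in neuronal-like cells. In mesenchymal-like cells it was at 299, 274 and 51.7 CPM. The 5 states were ordered by the ratio of each state to the level over all tumor-state cells of the same tumor, and for En1, as for En2 and Otx2, every pair of neighbors in that order overlapped between tumors. States further apart did not always overlap. The En1 ratios were 1.058, 1.105 and 1.016 in progenitor-like and 0.8455, 0.8938 and 0.9487 in stem-like cells, a difference that the test below did not call.

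Otx2 was at 223, 250 and 328 CPM in progenitor-like, 198, 236 and 326 in stem-like, 192, 184 and 350 in cycling, 245, 193 and 356 in neuronal-like and 237, 229 and 203 in mesenchymal-like cells. En2 was at 176, 191 and 37.6 CPM in progenitor-like cells and 185, 130 and 42.0 in neuronal-like cells. The value of En2 that stood apart was the 182 CPM of the mesenchymal-like cells of tumor 3, against 207 and 146 CPM in those of tumors 1 and 2. En1, En2 and Otx2 were therefore found in every state of every tumor, above the immune-like cells of the same tumor.

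Pax5 followed the neuronal-like state. It was at 69.2, 31.1 and 54.4 CPM in neuronal-like cells, 3.05, 2.23 and 3.40 times its level over the tumor states, and these ratios did not overlap those of cycling cells, the next state. Progenitor-like cells held 19.99, 14.6 and 15.7 CPM, cycling cells 32.4, 16.7 and 15.2 and stem-like cells 12.8, 4.27 and 12.0. In mesenchymal-like cells Pax5 was at 9.31, 9.32 and 15.3 CPM. The share of cells with a Pax5 UMI after thinning was likewise higher in neuronal-like cells, at 8.97%, 5.07% and 6.52%, than in progenitor-like cells, at 2.51%, 3.12% and 3.44%. After birth, Pax5 is best known as the commitment factor of B cells, and its immune-like level of at most 3.51 CPM lay below that of each tumor state.

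Irx3 was low in the neuronal-like state. Stem-like cells held 47.1, 51.8 and 41.2 CPM, progenitor-like cells 38.3, 35.99 and 32.03 and neuronal-like cells 19.4, 15.8 and 14.5. Mesenchymal-like cells held 35.1, 31.3 and 45.4 CPM, in tumor 3 more than stem-like cells, and the ratios of these 2 states overlapped. Its ratio was 1.24, 1.47 and 1.23 in stem-like cells and 0.510, 0.448 and 0.432 in neuronal-like cells, the last state in the order and without overlap with cycling cells.

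Fgf8 was lower in neuronal-like cells than in the progenitor-like, stem-like and cycling cells of each tumor. It was at 18.6, 17.4 and 52.7 CPM in progenitor-like cells, 25.1, 13.2 and 57.6 in cycling cells and 16.2, 14.6 and 33.4 in stem-like cells. Neuronal-like cells held 5.96, 6.12 and 15.9 CPM and the mesenchymal-like cells of tumor 3 held 6.33 CPM. The order of tumors, with tumor 3 highest, was seen in every state except the mesenchymal-like cells, where tumors 1 and 2 had 16.0 and 14.3 CPM.

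In the comparison of neuronal-like with progenitor-like cells, 3 of the 7 members tested were called, while 15.5% of all genes were called (8.04% higher and 7.47% lower). Pax5 rose by 1.41 on the log2 scale (SE 0.36, adjusted p = 0.00817), Fgf8 fell by 1.81 (SE 0.41, adjusted p = 0.00306) and Irx3 fell by 1.23 (SE 0.23, adjusted p = 0.000677). Each moved in the same direction in 3 of 3 tumors. En1 (-0.20, SE 0.32, adjusted p = 0.741), En2 (-0.27, SE 0.38, 0.715) and Otx2 (-0.20, SE 0.28, 0.715) were not called, nor was Pax2 (-0.66, SE 1.47, adjusted p = 0.826), and Lmx1b was too low to test in this and the following comparisons. All 3 calls were kept without tumor 3, and only Irx3 was also kept without tumor 2 and without the block. Without tumor 1 the adjusted p was 0.112 for Pax5, 0.118 for Fgf8 and 0.0852 for Irx3, without tumor 2 it was 0.0726, 0.0540 and 0.0315, and without the block it was 0.107, 0.0964 and 0.00775.

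Genes of the FGF pathway were among those lower in neuronal-like cells with Fgf8. Of the 18 further boundary signaling genes tested, 7 were lower and 0 higher, with a median log2 difference of -1.02 against -0.06 over all genes. Fgfr1, a receptor of the ligand, fell by 1.68, and Spry1, Spry2 and Dusp6, the feedback inhibitors that FGF signaling induces, fell by 1.64, 1.19 and 1.53. The ligand gene Fgf18 fell by 1.39, and these 5 genes were lower in each tumor. Fgfr1 and Dusp6 were called under every alternative run, while the adjusted p reached 0.166 for Spry1, 0.167 for Spry2 and 0.226 for Fgf18, each lost with tumor 1 left out among other settings. Among 25 midbrain and hindbrain genes, 7 were higher and 2 lower (median 0.78), and among those that rose in every tumor were Lhx9 (4.38), Atoh1 (3.64), the rhombic lip proneural gene, Pou4f1 (3.15), Lhx1 (3.09) and Lhx5 (2.43). Of 17 forebrain genes, 6 were higher (median 0.54), among them Lhx2 (3.59), Eomes (2.42), Isl1 (2.04), Dlx6 (1.84) and Dlx5 (1.77). Of these genes Lhx9 and Dlx5 were called under every alternative run, and the others were lost under 1 or more. Their highest adjusted p was 0.0795 for Atoh1, 0.0686 for Pou4f1, 0.0778 for Lhx1, 0.301 for Lhx5, 0.0767 for Lhx2, 0.277 for Eomes, 0.115 for Isl1 and 0.114 for Dlx6. Without tumor 3 the difference was 1.18 for Pou4f1 and 1.86 for Lhx2.

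**Figure D2:**
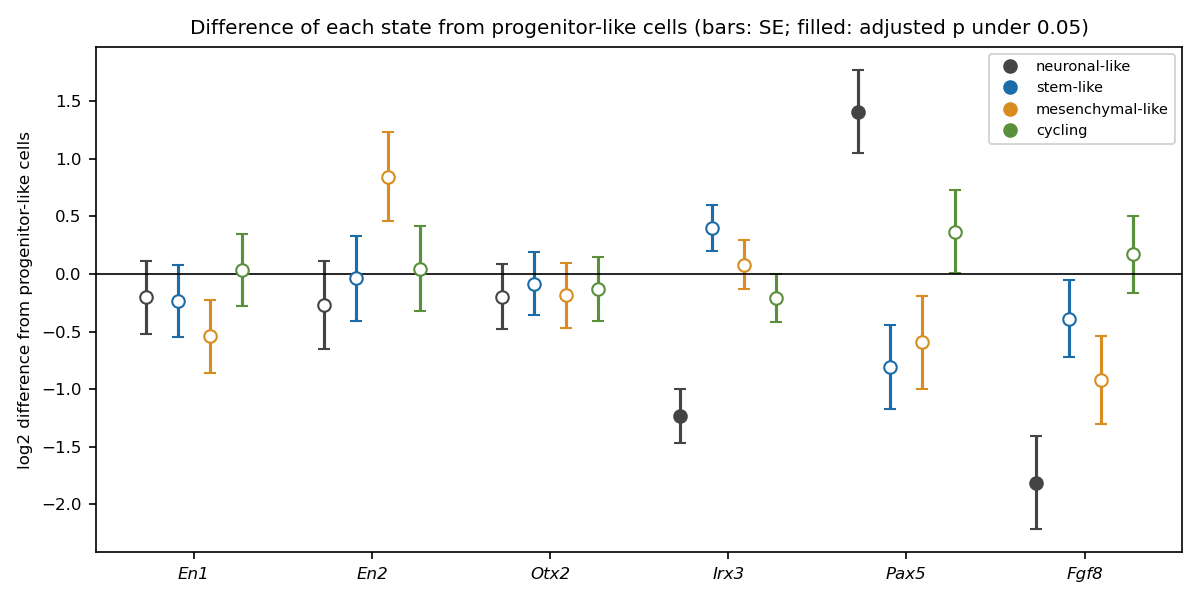
Log2 difference of 6 members from progenitor-like cells in the other 4 tumor states (edgeR; bars are 1 SE, n = 3 tumors; filled points passed the threshold). The filled points are those of neuronal-like cells, with Pax5 at 1.41 and Fgf8 and Irx3 at -1.81 and -1.23, while those of En1, En2 and Otx2 are open in every state.

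Stem-like cells were compared with progenitor-like cells next. With 1.27% of all genes called, 0 members were called by edgeR's quasi-likelihood test, 1 had an unadjusted p under 0.05 and DESeq2 also called 0. That member was Pax5, with a difference of -0.80 (SE 0.36, adjusted p = 0.356). Irx3 differed by 0.40 (SE 0.20, adjusted p = 0.423) and was higher in 3 of 3 tumors. Pax2 differed by 1.69 (SE 0.82, adjusted p = 0.408), Fgf8 by -0.39 (SE 0.34, 0.70), En1 by -0.24 (SE 0.31, 0.822), Otx2 by -0.08 (SE 0.28, 0.949) and En2 by -0.03 (SE 0.37, 0.993). Of the 3 lists, 0 genes were called by edgeR, with 5 boundary signaling, 6 forebrain and 2 midbrain and hindbrain genes at an unadjusted p under 0.05.

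Cycling cells likewise showed 0 members called by edgeR or DESeq2 and 0 with an unadjusted p under 0.05, with 9.21% of all genes called. Pax5 differed by 0.37 (SE 0.36, adjusted p = 0.613) and Irx3 by -0.21 (SE 0.21, adjusted p = 0.629). Pax2 differed by 1.59 (SE 0.86, adjusted p = 0.303), Fgf8 by 0.17 (SE 0.33, 0.832), Otx2 by -0.13 (SE 0.28, 0.857), En2 by 0.05 (SE 0.37, 0.976) and En1 by 0.04 (SE 0.31, 0.979). Of the listed genes, Etv4 was 1.37 higher and Eomes, a factor of intermediate progenitors and cerebellar unipolar brush cells, was 2.67 lower. Both calls were lost under several alternatives, with an adjusted p of up to 0.794 for Etv4 (without the block, difference 0.84) and 0.389 for Eomes (without tumor 1), and Etv4 differed by 0.86 without tumor 1.

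Mesenchymal-like cells differed from progenitor-like cells in 14.1% of genes (8.99% higher and 5.09% lower) and in 1 member. Pax2 was 3.46 higher on the log2 scale (SE 0.87, adjusted p = 0.0111), on 2, 1 and 52 UMIs in mesenchymal-like cells and 0, 2 and 50 UMIs in progenitor-like cells of tumors 1, 2 and 3. In tumor 3 this was 27.5 CPM (20.5 to 35.999) against 2.02 CPM (1.499 to 2.66), and tumors 1 and 2 were at or under the limit of 3 counts in both states. Without tumor 1 or tumor 2 the adjusted p was 0.0759 or 0.0577, without tumor 3 the gene was too low to test, and it was 0.283 without the block and 0.307 in DESeq2. The call therefore rested on tumor 3.

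En2 differed by 0.84 between mesenchymal-like and progenitor-like cells (SE 0.39, adjusted p = 0.151) and by -0.01 without tumor 3. Fgf8 differed by -0.92 (SE 0.38, adjusted p = 0.111) and En1 by -0.54 (SE 0.32, adjusted p = 0.277). Pax5 differed by -0.59 (SE 0.41, adjusted p = 0.362), Otx2 by -0.18 (SE 0.28, 0.720) and Irx3 by 0.08 (SE 0.21, 0.847). Of the 18 boundary signaling genes, 3 were higher and 1 lower (median 0.57 against -0.06 over all genes), and the ligand gene Fgf17, named after its values were seen, was, like Pax2, highest in the summed mesenchymal-like cells of tumor 3, with 1.06, 1.10 and 61.8 CPM in mesenchymal-like and 1.32, 2.19 and 2.18 CPM in progenitor-like cells (fitted log2 difference 2.19, SE 0.74, adjusted p = 0.0483), higher in 1 of 3 tumors. Without tumor 3 its difference was -0.53 (adjusted p = 0.739), and in the thinned counts of that tumor its UMIs lay in few cells, 9 of them in 1 cell. Fgfr3 (1.84) and Sp5 (1.71) were the other boundary signaling genes that were higher, with an adjusted p of up to 0.406 and 0.432 under alternatives and a difference of 0.89 for Fgfr3 without tumor 3. Of 25 midbrain and hindbrain genes, 2 were higher and 3 lower (median -0.46), against the shares of 8.99% and 5.09% over all genes. Of 17 forebrain genes, 5 were lower (among them Eomes at -3.67, Gsx1 at -2.58, Dlx5 at -1.40 and Sp9 at -1.34) and 0 higher (median -0.84). Gsx1 was called under every alternative run, while the adjusted p reached 0.410 for Eomes, 0.190 for Dlx5 and 0.217 for Sp9, each without tumor 1, and Eomes ranged from -5.95 to -1.16 over the alternatives.

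The 26 cells of tumor 3 with a Pax2 UMI after thinning were examined after their values were seen, and they are a description. They fell into 8 progenitor-like, 7 mesenchymal-like, 6 stem-like, 5 cycling and 0 neuronal-like cells, so they were not of 1 state. En2 was detected in 17 of them, or 65.4% (exact binomial interval 44.3 to 82.8), against 138 of the other 2240 cells, or 6.16% (5.20 to 7.24). The pair was seen 6.08 times as often as the product of the shares within states gives (3.54 to 9.73), and this ratio was 4.83 to 6.69 under the alternatives.

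In the same cells En1 was detected in 26.9% against 16.6% and Otx2 in 38.5% against 42.8%. Fgf8 and Irx3 were in 1 cell each and Pax5 in 0 of 26. Of the other genes examined, Cnpy1, which lies 28.7 kb from En2 on the opposite strand of chromosome 5 and whose product acts in FGF signaling at the isthmus, was in 19.2% against 2.90%. The homeobox gene Meis2 was in 23.1% against 3.79%, and the mesenchymal gene Twist1 in 19.2% against 3.66%. Higher shares were thus not limited to En2. Fgf17, a ligand gene, was in 1 of 26 (3.85%) against 13 of 2240 (0.580%). Smarcb1 was in 0 of these 26 cells and 2 of the 2240. Their median depth was 16084 UMIs against 19394, and markers of the mesenchymal state (5.92 against 0.932 UMIs a cell) and of meningeal fibroblasts (0.346 against 0.0496) were higher in them, whose part in the result was not tested.

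**Figure D3:**
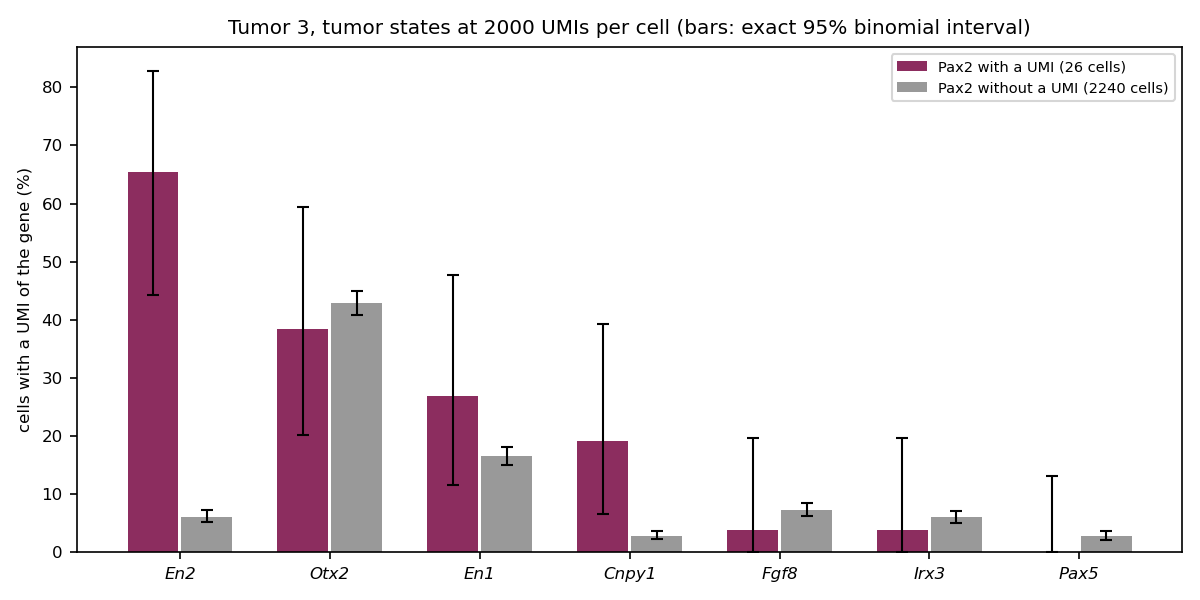
Share of cells of tumor 3 with a UMI of each gene after thinning to 2000 UMIs (percent of cells, intervals are exact binomial at 95%), for the 26 cells with a Pax2 UMI and the 2240 without. En2 is in 65.4% of the former and 6.16% of the latter, and Otx2 is in 38.5% and 42.8%.

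The last question was whether En1, En2, Pax5 and Otx2 were expressed in the same cells, since Otx2 and the engrailed genes mark overlapping territories of the midbrain, or in separate ones. For each pair, the cells with both genes after thinning to 2000 UMIs were set against the number given by the product of the shares within each state, summed over states. En1 and En2 were found together in 523, 252 and 28 cells, against 486, 230 and 24.3 by the product. The ratios were 1.08 (0.986 to 1.17), 1.10 (0.966 to 1.24) and 1.15 (0.766 to 1.67), each interval holding 1. En1 and Otx2 were found together in 601, 317 and 164 cells, against 582, 305 and 162, with ratios of 1.03, 1.04 and 1.01.

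Cells with En1 thus held Otx2 about as often as cells without it, in each tumor. En2 and Otx2 were together in 375, 208 and 51 cells, against 352, 182 and 64.6, so that the ratios of 1.07, 1.15 and 0.789 lay on both sides of 1. En2 and Pax5 had ratios above 1 in 3 of 3 tumors, on few cells. The counts were 48, 21 and 10 against 35.5, 14.6 and 4.41, and the ratios 1.35 (0.997 to 1.79), 1.44 (0.890 to 2.20) and 2.27 (1.09 to 4.17). En1 and Pax5 had ratios of 1.02, 0.796 and 1.40, and Pax5 and Otx2 of 0.961, 1.06 and 0.916.

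Counted by the number of these 4 genes in a cell, tumor 1 had 1495 cells with none, 2039 with 1, 1025 with 2, 184 with 3 and 12 with all 4. Tumor 2 had 745, 1015, 486, 112 and 3 cells, and tumor 3 had 964, 1065, 212, 23 and 2. Among immune-like cells, 4 of 567, 4 of 519 and 0 of 151 held 2 or more. Cells with at least 2 of the 4 were therefore frequent in tumors 1 and 2, fewer in tumor 3 and rare among immune-like cells.

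**Figure D4:**
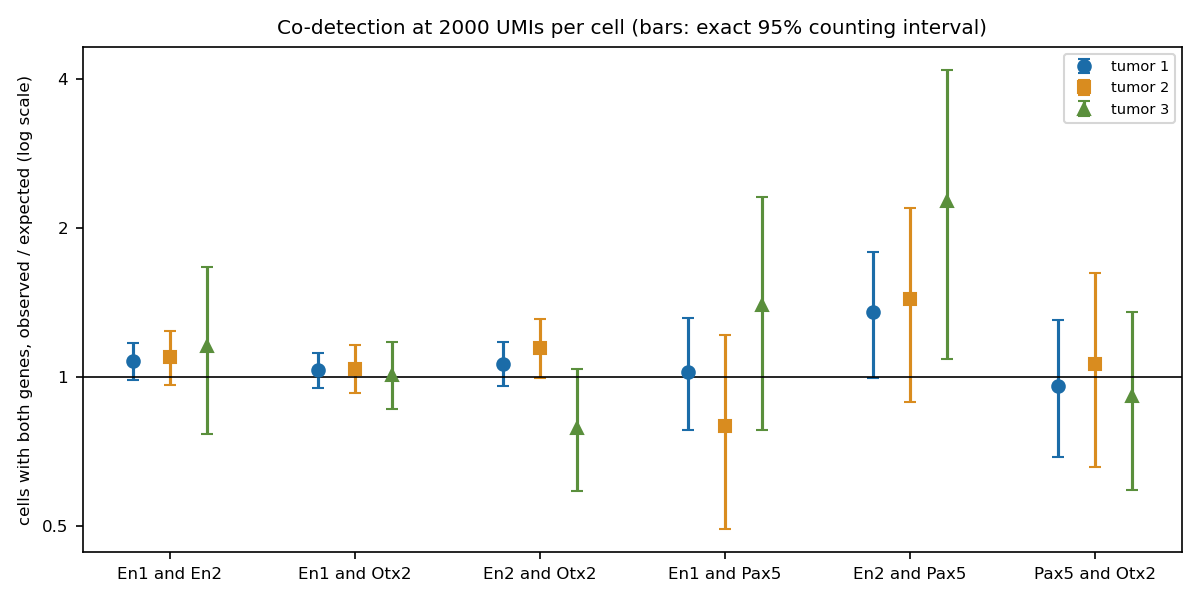
Ratio of cells with both genes to the number given by the product of their shares within states, for the 6 pairs of En1, En2, Pax5 and Otx2 in each tumor (log axis, bars are 95% Poisson intervals, line at 1). En1 with Otx2 lies at 1.03, 1.04 and 1.01, and En2 with Pax5 at 1.35, 1.44 and 2.27.

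Tumor-state cells with a UMI of En1, En2 or Pax5 after thinning were next compared with those without one, on the thinned counts summed for each tumor (2668, 1300 and 546 against 2087, 1061 and 1720 cells). Neither this split nor the one by Otx2 below was matched for state. Progenitor-like cells made up 49.4%, 51.6% and 51.5% of the former and 47.7%, 42.4% and 53.0% of the latter. The part of this mix in the differences was not tested. Of 12346 genes, 0.081% were called. En1, En2 and Pax5 chose the cells and are not results here, and 0 of the other members were called by edgeR, with 2 at an unadjusted p under 0.05, and DESeq2 called none of Fgf8, Otx2 and Irx3. Fgf8 was at 20.99, 13.5 and 55.9 CPM in the former cells and 13.4, 13.7 and 39.2 in the latter (log2 difference 0.46, SE 0.15, adjusted p = 0.565). Otx2 was at 223, 246 and 306 against 204, 226 and 342 CPM (0.03, SE 0.06, adjusted p = 0.977). Irx3 was at 38.6, 35.4 and 34.8 against 29.9, 28.3 and 34.01 CPM (0.27, SE 0.12, adjusted p = 0.744).

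Cells split in the same way by Otx2 (1411, 752 and 969 with a UMI, 3344, 1609 and 1297 without) differed in 0.346% of 12122 genes. Apart from Otx2 itself, which chose the cells, 0 members were called by edgeR, with 1 at an unadjusted p under 0.05, and DESeq2 called neither En1 nor Irx3. En1 was at 353, 368 and 104 CPM in cells with Otx2 and 330, 336 and 96.4 in cells without (0.10, SE 0.05, adjusted p = 0.702). En2 was at 176, 182 and 39.7 against 164, 145 and 61.3 CPM. The fitted En1 difference, which did not pass the test, changed sign in another thinning draw (-0.0315) and with only cells failing both limits removed (-0.0316), and En2 did not keep 1 direction. Of the listed genes, Irx5, a neighbor and paralog of Irx3, was higher with Otx2 by 0.48 (SE 0.10, adjusted p = 0.0326), at 66.3, 55.9 and 55.2 against 46.7, 39.5 and 40.5 CPM, a call that was lost under 8 of 14 alternatives (adjusted p from 0.0105 to 1.0). Irx3 differed by 0.30 (SE 0.14, adjusted p = 0.636), and it was called with doublets kept (0.55, adjusted p = 0.0210) and at 3000 UMIs (0.52, adjusted p = 0.00977). Pax2 differed by -0.64 (SE 0.65, adjusted p = 0.895), Fgf8 by 0.08 (SE 0.15, 0.956), En2 by 0.07 (SE 0.09, 0.926) and Pax5 by 0.03 (SE 0.16, 0.987).

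For each member the genes with the most similar level were ranked by Pearson's r over the 15 sums of 3 tumors and 5 states, among 10942 genes. The sums share tumors and depth, and the ranking is a description. A high r can rest on 1 tumor or 1 sum, which was not tested. En1 was lower in every state of tumor 3 than in the other tumors. Pax2 and Fgf17 were both highest in the mesenchymal-like sum of tumor 3. En2 was followed by Meis2 (0.967), Cnpy1 (0.960) and Cdk6 (0.937), Pax2 by Fgf17 (0.960) and En1 by Aimp1 (0.968). Pax5 was followed by Ywhaq (0.942), Irx3 by Bmpr1b (0.934), a receptor of bone morphogenetic proteins, Fgf8 by Npm3 (0.925) and Otx2 by Prokr1 (0.893).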

How the data were processed

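Fresh tumors were dissociated and profiled with the 10x Genomics 3′ assay. The authors aligned and counted the reads with Cell Ranger 3.1.0 on mm10, and the deposited files hold raw UMI counts per gene and barcode. Barcodes were removed if their mitochondrial share lay over 3 median absolute deviations above the median (or over 20%) or their gene number was under the tumor's 5th percentile. Scrublet in scanpy 1.11.5 called 0, 1 and 1 doublets by its own threshold, so cells scoring above the quantile of an assumed 0.8% per 1000 cells were removed (692, 449 and 152 of 9543, 7560 and 5006, fewer than the 7.63%, 6.05% and 4.00% of that rate). Cells were thinned to 2000 UMIs and gated on marker lists, with at least 5 UMIs for a tumor state and 10 for another cell type. Cells gated on markers of other cell types were kept as separate classes and not removed as in the study. At the lowest passing score lay 96, 70 and 19 neuronal-like and 91, 60 and 25 mesenchymal-like cells. Full-depth counts were summed per tumor and state (at least 20 cells) and tested in 1 fit with edgeR 4.0.16 (R 4.3.3; TMM, filterByExpr, quasi-likelihood F test, Benjamini-Hochberg over all genes, threshold 0.05). The tumor was a block because each mouse gave every state. DESeq2 1.42.0, other depths, gates and filters, no block and each tumor left out were alternatives. On simulated counts for neuronal-like against progenitor-like cells (14557 genes), 54% of 2-fold and 89% of 4-fold changes were recovered, and 4.67% of calls were false. The simulation held no difference between tumors and changed 200 genes in neuronal-like cells only, so these shares may not hold for the measured counts.

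All members tested were named in every comparison, and from 3 lists (20 boundary signaling, 32 midbrain and hindbrain and 20 forebrain genes) up to 6 called genes that moved the same way in every tumor. The members, lists and marker lists were chosen with earlier results of these data known, and the gates after marker scores were seen. Intervals are exact at 95%. CPM is the summed counts of a gene scaled to 1000000 UMIs. Some listed genes are not reported here by name.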

Additional observations from a re-analysis of the deposited data

Results flagged for a closer look

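Cells under 2000 UMIs (2338, 3207 and 1856 in tumors 1, 2 and 3) entered no comparison, and 6 of the 8 members were above the immune-like level in them too, Pax2 and Lmx1b being at 0 CPM in 2 tumors each. The lowest and highest ratio of a tumor's shallow cells to its own immune-like cells were 7.21 and 19.5 for En1, 2.24 and 12.7 for En2, 7.73 and 15.6 for Otx2, 5.78 and 13.6 for Irx3, 6.09 and 11.2 for Pax5 and 5.03 and 15.6 for Fgf8. En1 was at 217, 170 and 58.2 CPM and Otx2 at 161, 171 and 297 CPM in these cells, with tumor 3 lowest in En1 and highest in Otx2 as among the deeper cells.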

How the results depend on the processing

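The tumor is the block of these fits because each mouse gave every state, and the labels' numbers pair nothing further. Without the block, 28 of 61 called values for single genes were lost, against 31, 26 and 4 without tumor 1, 2 or 3 and 8 in DESeq2. The 6 members called against the immune-like cells were kept under every alternative run. Of the members called in neuronal-like cells (3), 1 was left without the replicate block and 0 to 3 with a tumor left out; for mesenchymal-like cells (1), it was 0 without the block, 0 in DESeq2 and 0 to 0 with a tumor left out. For boundary-positive cells (0 list genes), the count was 2 in another thinning draw, 1 with doublets kept, 2 without the filter on low counts, 2 with only cells failing both limits removed, 1 at 1000 and 4 at 3000 UMIs and 0 to 1 with a tumor left out. Over all genes (10) it was 6 in DESeq2, 34 in another draw, 35 with doublets kept, 45 without the filter, 28 with only cells failing both limits removed, 2 without the block, 78 at 3000 UMIs and 3 to 29. For Otx2-positive cells (1 list gene) it was 0 in DESeq2, 4 with doublets kept, 2 with higher gates, 0 without the block, 0 in progenitor-like cells alone, 3 at 1000 and 4 at 3000 UMIs and 0 to 4. Over all genes (42) it was 5, 22 in another draw, 99 with higher gates, 120 without the filter, 1 without the block, 5 in progenitor-like cells, 109 at 3000 UMIs and 25 to 84. The cause was not tested. Co-detection ratios moved for En1 with Pax5 (1.22 in tumor 2 with doublets kept, 0.350 in tumor 3 at 1000 UMIs), En1 with Otx2 (0.921 in tumor 2 in another draw) and En2 with Otx2 (0.991 in tumor 2 with doublets kept). Over all barcodes Irx3 was at 32.9, 26.3 and 31.1 CPM and Lmx1b in tumor 2 at 0.0996 CPM. Pax2 against the immune-like cells gained a call with doublets kept, and so did Irx3 in the Otx2 split with doublets kept and at 3000 UMIs. Uncalled log2 differences changed sign as follows. In neuronal-like cells Pax2 was at 0.54 in DESeq2, 1.00 with doublets kept and 1.07 at 3000 UMIs. In stem-like cells En2 was at 0.0204 in DESeq2, 0.0226 with RLE size factors, 0.0536 in another draw, 0.0508 with doublets kept, 0.0539 with higher gates, 0.182 with only cells failing both limits removed, 0.0306 at 1000 and 0.0628 at 3000 UMIs and -0.0658 to 0.0380 with a tumor left out. In mesenchymal-like cells Pax5 was at 0.305 with doublets kept, and with a tumor left out En2 ran from -0.00691 to 1.37, Otx2 from -0.314 to 0.0201 and Irx3 from -0.123 to 0.221. The called value of Fgf17 in mesenchymal-like cells ran from -0.529 to 3.06 with a tumor left out. In cycling cells En1 was at -0.0905 with doublets kept, -0.0102 without the block and -0.0152 to 0.107 with a tumor left out, and En2 at -0.00501, -0.0232 and -0.0620 to 0.164. In the boundary split Otx2 was at -0.0100 without the block and -0.0286 to 0.119 with a tumor left out, and Irx3 at -0.0703 with only cells failing both limits removed. In the Otx2 split En1 was at -0.0315 in another draw and -0.0316 with only cells failing both limits removed, En2 at -0.0504 in DESeq2, -0.0340 with doublets kept, -0.00389 in progenitor-like cells, -0.00140 at 1000 UMIs and -0.0516 to 0.183 with a tumor left out, Pax2 at 0.503 in DESeq2 and 0.226 with doublets kept, Pax5 at -0.189 with doublets kept, -0.318 at 1000 UMIs and -0.0509 to 0.0629 with a tumor left out, and Fgf8 at -0.0193 to 0.304. All-gene counts also moved, for neuronal-like cells from 2435 to 751 without the block and 530 to 2676 with a tumor left out, for stem-like cells from 199 to 742 in DESeq2, 0 without the block and 0 to 832, for mesenchymal-like cells from 2211 to 695 and 345 to 1795, and for cycling cells from 1446 to 2527 in DESeq2, 622 without the block and 474 to 2147. Scaling by relative log expression moved the median of all genes in neuronal-like cells by 0.11.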

Other observations

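Members were also measured in cells outside the tumor states. Irx3 was at 40.6, 27.1 and 60.4 CPM in the endothelial-like cells of tumors 1, 2 and 3, near or above its level in the tumor states, and En1 was at 111, 164 and 5.71 CPM in the same cells. Smarcb1 was at 25.3, 20.95 and 47.3 CPM there. Otx2, which choroid plexus epithelium is known to express, was detected in 32.4% of the 34 choroid plexus-like cells of tumor 2, at 173 CPM. Fibroblast-like cells, counted in the pair of tumors with at least 20 of them (55 and 39 cells), held En1 at 165 and 257 CPM, Otx2 at 232 and 186 CPM and Smarcb1 at 0 CPM. With upper limits of 7.52 and 14.6 CPM for Smarcb1, these fibroblast-like cells were not shown to be unrecombined host cells, and their origin was not tested. Their En2 was at 95.8 and 51.3 CPM, Irx3 at 14.3 and 19.7 CPM, Pax5 at 2.04 and 0 CPM and Fgf8 at 0 CPM in both, so the members other than Otx2 were mostly lower than in the tumor states.

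Markers of neurons that the midbrain and hindbrain normally form were summed per cell. The cerebellar granule list was at 0.105, 0.132 and 0.220 UMIs a cell and the dopaminergic list at 0.0261, 0.0275 and 0.0349 UMIs a cell over the tumor states after thinning. In the neuronal-like cells alone they were at 0.326, 0.206 and 0.391 and at 0.0989, 0.0716 and 0.109 UMIs a cell. Cells with a Pax5 UMI held more of the neuronal list than cells without, at 3.78 against 1.43 UMIs a cell in tumor 1, 3.60 against 2.08 in tumor 2 and 1.484 against 1.09 in tumor 3.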
